A study of Homo sapiens with 12 samples.

Results

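The NKG2D ligands are cell surface proteins that natural killer (NK) cells and some T cells read through the activating receptor NKG2D. Of the human ligand genes 7 were chosen by name, MICA, MICB, ULBP1, ULBP2, ULBP3, RAET1G and RAET1L. RAET1E, a further ligand gene, was not among them and is described with the related genes. Each of the 7 symbols matched 1 of the 60099 genes, and the 7 genes held 16 of the 201521 transcripts. All 7 passed the filter on low counts, which kept 19944 genes. Whole RNA of Cal27 and HN30, established lines of head and neck squamous cell carcinoma (HNSCC), had been sequenced after 24 h without interferon alpha (IFNα) or with 20 or 200 ng/ml of it. Letters A, B and C stand for 0, 20 and 200 ng/ml in a first line set, and D, E and F for the same doses in a second, with 2 replicates a letter and 12 samples in all. The labels do not give the line behind each set, and the letters A-C and D-F serve as their names. Each set is a cultured line with no NK cells added, and nothing in the labels says whether its 2 replicates came from separate cultures, so that p-values measure only the spread between these samples.

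MICA and MICB are relatives of the class I major histocompatibility complex (MHC) molecules that span the membrane and present no peptide. The ULBP and RAET1 proteins share the outer part of that fold, and several of them are held by a lipid (GPI) anchor. Healthy epithelium shows little of these proteins, while DNA damage, heat shock and transformation raise them, and tumour cells can lose them again when metalloproteases such as ADAM10 and ADAM17 cut them off. IFNα acts on tumour cells chiefly through a transcription factor complex that includes IRF9 and binds interferon-stimulated response elements. The question asked of the data was what the ligand genes looked like in untreated cells and whether IFNα moved them.

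All 7 genes lie on chromosome 6 (GRCh38, positions as in the files). MICA (ENSG00000204520) was placed at chr6:31399784-31415315 on the plus strand, and MICB (ENSG00000204516) at chr6:31494881-31511124, also on the plus strand and 79.6 kb further on. HLA-B, a class I antigen-presenting gene, ended 42.6 kb before MICA. The span of the noncoding gene HCP5, introns included, overlapped that of MICA on the same strand over 14.6 kb. Reads from any shared exon could be credited to either gene, and overlap of exons was not examined. The other 5 genes stood within 152.2 kb on the long arm. ULBP2 (chr6:149942000-149949235) and ULBP1 (chr6:149964007-149973710) were on the plus strand. RAET1G (chr6:149916878-149923121), RAET1L (chr6:150018334-150025532) and ULBP3 (chr6:150063150-150069095) were on the minus strand.

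The coding sequences of the family are close enough to bear on how reads were shared out, and the first 90 bases of coding exon 2, the start of the extracellular part, are shown for that reason. They were read from GENCODE v29 transcripts on GRCh38, 5′ to 3′. Capitals mark bases that differ from MICA in MICB, and from ULBP2 in the rest.
MICA, chr6:31410543-31410632, plus strand: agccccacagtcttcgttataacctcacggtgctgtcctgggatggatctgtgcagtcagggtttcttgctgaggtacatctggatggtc
MICB, chr6:31505617-31505706, plus strand: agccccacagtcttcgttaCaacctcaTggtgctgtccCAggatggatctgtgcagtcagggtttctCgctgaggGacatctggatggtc
ULBP2, chr6:149945309-149945398, plus strand: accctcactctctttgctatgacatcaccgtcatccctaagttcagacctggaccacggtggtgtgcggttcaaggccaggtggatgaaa
RAET1G, chr6:149919727-149919816, minus strand: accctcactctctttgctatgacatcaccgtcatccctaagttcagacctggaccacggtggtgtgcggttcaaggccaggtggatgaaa
RAET1L, chr6:150022154-150022243, minus strand: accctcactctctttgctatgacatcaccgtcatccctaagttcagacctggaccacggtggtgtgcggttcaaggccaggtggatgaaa
ULBP1, chr6:149968607-149968696, plus strand: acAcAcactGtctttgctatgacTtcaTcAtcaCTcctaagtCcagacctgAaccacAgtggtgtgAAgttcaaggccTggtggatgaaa
ULBP3, chr6:150066073-150066162, minus strand: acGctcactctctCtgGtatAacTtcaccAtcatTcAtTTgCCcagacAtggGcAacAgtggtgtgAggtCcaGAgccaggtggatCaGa

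ULBP2, RAET1G and RAET1L were the same at all 90 bases, whereas ULBP1 differed from ULBP2 at 14 and ULBP3 at 22. MICB differed from MICA at 6. Over the aligned coding sequence ULBP2 was 96.75% identical to RAET1L and 94.58% to RAET1G, and MICA was 92.11% identical to MICB. Of the 31-base words of the ULBP2 coding sequence, 57.9% also occurred in RAET1L and 32.8% in RAET1G. For 100-base words the share was 115 of 639 in RAET1L and 3.44% in RAET1G. The values of ULBP2, RAET1G and RAET1L therefore rest in part on how the authors' program divided shared reads and are uncertain relative to each other, most of all for RAET1G and RAET1L, which had few reads of their own.

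Promoters were read from RefSeq (GRCh38.p14, 250 bases before to 50 after the start site), where all 7 ligand genes were matched. The RefSeq start sites of MICA and MICB lay inside the gene spans given above, downstream of their first bases. The interferon-stimulated response element, GAAANNGAAA on either strand, was in 0 of the 7 ligand promoters, in 6 of the 8 matched promoters of a fixed list of interferon-response genes, and in 3.57% of all 35116 promoters. The interferon-gamma-activated site (GAS) motif, TTCNNNGAA, was in 0 of 7, against 7.66% of all. The heat shock element core, GAANNTTC, was in 2 of 7, MICA and MICB, against 6.77% of all. The GC box, GGGCGG, was in 6 of 7, against 45.0% of all, and the TATA box letters, TATAAA, were in 1, ULBP1, against 11.5%. Both ULBP1 matches lay after the start site, at +34 and +36. The bases upstream of the start site are shown for MICA and MICB, and for ISG15, an interferon-induced ubiquitin-like protein, as the contrast. Capitals mark heat shock cores in MICA and MICB and response elements, which overlap each other, in ISG15.
MICA, chr6:31403345-31403594, plus strand: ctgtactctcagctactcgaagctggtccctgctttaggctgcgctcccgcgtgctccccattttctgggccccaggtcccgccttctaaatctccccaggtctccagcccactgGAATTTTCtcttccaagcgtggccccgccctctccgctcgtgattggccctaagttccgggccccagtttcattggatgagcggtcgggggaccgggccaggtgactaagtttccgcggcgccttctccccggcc
MICB, chr6:31497895-31498144, plus strand: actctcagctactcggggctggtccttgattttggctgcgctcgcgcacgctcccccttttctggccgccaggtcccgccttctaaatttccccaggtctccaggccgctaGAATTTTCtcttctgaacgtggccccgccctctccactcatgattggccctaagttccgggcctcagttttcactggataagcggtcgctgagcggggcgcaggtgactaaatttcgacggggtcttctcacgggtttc
ISG15, chr1:1013247-1013496, plus strand: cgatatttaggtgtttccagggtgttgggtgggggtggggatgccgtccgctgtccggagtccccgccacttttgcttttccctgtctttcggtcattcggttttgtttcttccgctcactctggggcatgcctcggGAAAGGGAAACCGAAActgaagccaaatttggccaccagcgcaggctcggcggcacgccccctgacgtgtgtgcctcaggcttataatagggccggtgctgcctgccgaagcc

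The MICA and MICB cores carried the same 8 letters and began 135 and 139 bases before their start sites. A match describes the letters and is not a bound site, and a window without one says nothing about elements elsewhere.

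The interferon treatment itself was plain in the libraries. Total estimated counts were 10517448 to 16056734 per sample. All 10 genes of the fixed interferon check rose at 200 ng/ml and all 10 at 20 ng/ml, with median log2 fold changes of 4.39 and 4.16, beside 4.98% and 2.33% of all genes that rose at the respective dose. MX1, an antiviral GTPase, went from 66.2 and 71.2 TPM (transcripts scaled for length and depth) in A to 1137 and 1172 in C, and from 29.9 and 31.1 in D to 1192 and 1134 in F. The squamous epithelium markers were present in both sets (summed 1523 to 3589 TPM), although KRT14 was at 41.9 to 49.2 TPM in A-C and at 0 to 0.254 in D-F. Markers of NK and T cells summed to 0 to 0.638 TPM. KLRK1, which encodes NKG2D, and the adaptor genes HCST and TYROBP summed to 0 to 0.434 TPM. HCST and TYROBP were at 0 in every sample. The endothelial gene CDH5 stood at 15.2 to 21.7 TPM in A-C and 0 to 0.156 in D-F, while PECAM1 and VWF stayed at or below 0.576 TPM throughout. The myeloid markers summed to 2.54 to 7.22 TPM and the fibroblast markers to 4.34 to 14.7.

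The ligands fell into an abundant and a scarce set on the TPM scale, which allows for transcript length. Over the 12 samples the median was 36.2 TPM for ULBP2 (range 27.1 to 41.1), 35.2 for MICA (26.1 to 46.3), 32.5 for MICB (21.9 to 56.7) and 17.99 for ULBP3 (12.3 to 27.1). The other genes were at 2.39 TPM for RAET1L (1.01 to 5.80), 1.71 for RAET1G (0 to 2.77) and 1.43 for ULBP1 (1.02 to 2.45). No sample of the scarce set reached the lowest value of the abundant set. MICA, MICB and ULBP2 had higher mean TPM than 77.1% to 77.9% of the genes tested, and ULBP3 than 61.8%. The 7 ligands together summed to 109.6 to 154.8 TPM, of which MICA, MICB, ULBP2 and ULBP3 held 91.5% to 97.4%.

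MICA had the highest mean of the abundant set in both untreated line sets, while ULBP2 and MICB changed places below it. In untreated A the means were 38.1 ± 11.7 TPM for MICA, 35.3 ± 1.78 for ULBP2, 29.5 ± 1.07 for MICB and 20.9 ± 3.74 for ULBP3 (SD, n = 2). The MICA samples overlapped those of ULBP2 and of MICB. In untreated D the means were 33.2 ± 2.81 for MICA, 30.4 ± 0.573 for MICB and 30.0 ± 4.09 for ULBP2. The ULBP2 samples overlapped those of MICA and of MICB. At both doses of IFNα MICB led in D-F, with 48.3 TPM in E and 55.4 in F. In A-C MICA had the highest mean at each dose, overlapping ULBP2 and MICB in A and C.

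**Figure D1:**
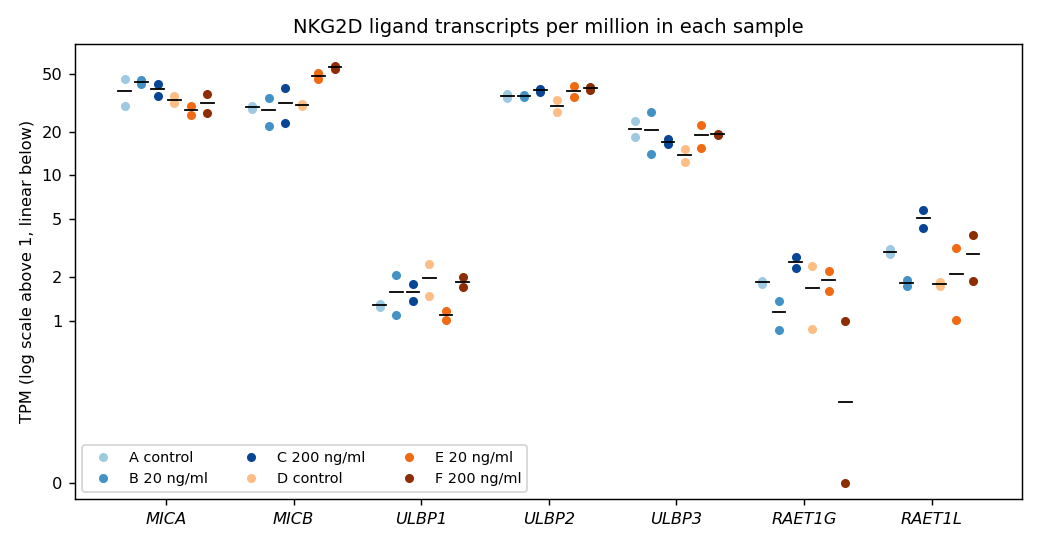
TPM (y axis, logarithmic above 1 and linear below) of each NKG2D ligand in each of the 12 samples, coloured by letter, with a bar at the mean of the 2 replicates. MICA, MICB, ULBP2 and ULBP3 lie at 12.3 TPM or above in every sample, and the E and F points of MICB lie above its D points.

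The first comparison asked whether 200 ng/ml IFNα changed the ligand genes over both line sets. None of the 7 was called, where a call is an adjusted p of at most 0.05 (edgeR's quasi-likelihood test with Benjamini-Hochberg adjustment over 19944 genes). Of all genes tested, 9.55% were called. DESeq2 and limma on TPM also called 0 of 7. At an unadjusted p of at most 0.05 there were 2, MICB and ULBP2, which is 2 of 7 where 23.9% of all genes passed. The median log2 fold change of the 7 was 0.08, beside -0.01 for all genes. For MICA, MICB, ULBP1, ULBP2 and ULBP3 the 95% interval of the change lay wholly inside a 2-fold change in either direction, whereas those of RAET1G and RAET1L did not. In bulk RNA a lower share of expressing cells and less RNA per cell cannot be told apart.

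MICA, the ligand with the narrowest interval next to ULBP2, gave a log2 fold change near 0, at -0.02 (SE 0.10, 95% interval -0.23 to 0.20, adjusted p = 0.977 by edgeR). Its TPM was 29.8 and 46.3 in A, 42.7 and 44.9 in B, and 42.7 and 35.2 in C. In the other set it was 35.2 and 31.2 in D, 30.1 and 26.1 in E, and 26.8 and 36.3 in F. Control and 200 ng/ml samples overlapped in both sets. HCP5, which shares the strand with MICA, ranged from 4.35 to 64.1 TPM among the 12 samples, with 5.10 and 22.2 in A and 42.4 and 64.1 in C. HCP5 itself changed by an estimated 1.92 on the log2 scale without being called (SE 0.95, adjusted p = 0.259 by edgeR), and its part in the MICA values was not tested.

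MICB, the closest relative of MICA, had the largest log2 fold change among the 4 abundant ligands. Its TPM was 30.2 and 28.7 in A, 34.1 and 21.9 in B, and 40.2 and 22.9 in C. In the other set it was 30.0 and 30.8 in D, 46.0 and 50.6 in E, and 56.7 and 54.0 in F. The A-C samples overlapped at every dose, while the 4 treated samples of D-F were all above their controls. On CPM 23.1% of all genes had both E samples above both D samples, and 25.3% had both F samples above them. The log2 fold change over both sets was 0.46 (SE 0.18, interval 0.05 to 0.86, adjusted p = 0.164 by edgeR). Without the second C replicate, the lowest sample at this dose, it was 0.63 with an adjusted p of 0.0351, and without the first C replicate it was 0.21 with 0.434.

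ULBP2, a GPI-anchored ligand, had a smaller log2 fold change than MICB and was likewise not called. Its TPM was 36.5 and 34.0 in A, 34.7 and 35.9 in B, and 39.5 and 37.1 in C. It was 32.9 and 27.1 in D, 41.1 and 34.8 in E, and 40.6 and 38.8 in F. Both C samples were above both A samples, as was so for 23.5% of all genes on CPM. Both F samples were above both D samples, as was so for 25.3%. The log2 fold change was 0.23 (SE 0.09, interval 0.03 to 0.43, adjusted p = 0.149 by edgeR). Summing its counts with those of RAET1G and RAET1L, which share sequence with it, left no summed or single ligand called.

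ULBP3, also held by a GPI anchor, had 18.2 and 23.5 TPM in A and 17.7 and 16.4 in C, against 12.3 and 15.3 in D and 19.4 and 19.0 in F. The 200 ng/ml samples were below their controls in A-C and above them in D-F. On CPM the same held for 25.8% and 25.3% of all genes, respectively. The mean change over both sets was -0.06 on the log2 scale (SE 0.16, interval -0.42 to 0.30).

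The scarce ligands had too few reads for narrow intervals. ULBP1 was counted 21 to 70 times per sample, RAET1L 9 to 41 times and RAET1G 0 to 24 times. ULBP1 had a log2 fold change of 0.08 (interval -0.50 to 0.66). That of RAET1L was 0.63 (interval -0.17 to 1.44), with 3.12 and 2.87 TPM in A, 4.34 and 5.80 in C, 1.84 and 1.73 in D, and 1.89 and 3.90 in F. That of RAET1G was -0.54 (interval -1.86 to 0.79), and its count was 0 in the first F replicate, where 3 counts is the limit that such a 0 allows, and 8 in the second.

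The same question was then asked within each line set. In A-C at 200 ng/ml 0 of 7 were called by edgeR, beside 7.18% of all genes, and 0 had an unadjusted p of at most 0.05. In D-F 0 of 7 were called, beside 5.84%, and 2 had such an unadjusted p, MICB and ULBP2, where 18.7% of all genes did. MICB in D-F had a log2 fold change of 0.84 (1.80-fold, SE 0.26, interval 0.27 to 1.42, adjusted p = 0.0989 by edgeR), against 0.07 (SE 0.26, interval -0.51 to 0.65) in A-C. ULBP2 had 0.32 in D-F (SE 0.12) and 0.14 in A-C (SE 0.12). On library-scaled counts (CPM), 3 of 7 ligands (MICB, ULBP2 and ULBP3) had both F samples above both D samples, as 25.3% of all genes did. The corresponding number for C over A was 4 of 7 (ULBP1, ULBP2, RAET1G and RAET1L), against 23.5%. In the other direction 1 of 7 was below its controls in F (RAET1G), against 25.7% of all genes. In C it was also 1 of 7 (ULBP3), against 25.8%. Counting both directions, 50.9% of all genes did not overlap between D and F, and 49.3% between A and C.

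The difference between the line sets in the response to 200 ng/ml was tested as such. None of the 7 passed, beside 1.88% of all genes, and DESeq2 and limma also gave 0. MICB had a difference of 0.78 (D-F minus A-C, log2 scale, SE 0.36, interval -0.04 to 1.59, adjusted p = 0.307 by edgeR). ULBP3 had 0.76 (SE 0.32, adjusted p = 0.256 by edgeR), the only ligand at an unadjusted p of at most 0.05, which 17.7% of all genes reached. RAET1G had -2.41 with an interval from -5.07 to 0.25.

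**Figure D2:**
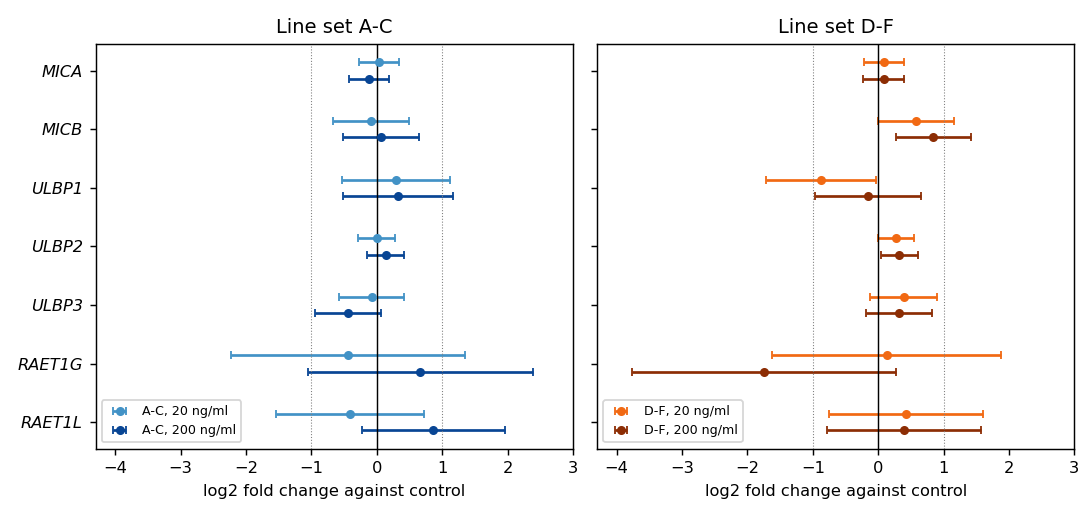
Log2 fold change against control (x axis) of each ligand at 20 and 200 ng/ml in line set A-C (left) and D-F (right), with 95% intervals from the edgeR fit and dotted lines at a 2-fold change. The intervals of MICA, ULBP2 and ULBP3 stay inside the dotted lines in both sets. MICB in D-F lies to the right of 0, and RAET1G and RAET1L have the widest intervals.

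At 20 ng/ml 0 of 7 ligands were called over both sets, beside 3.93% of all genes, 0 had an unadjusted p of at most 0.05 in edgeR, and DESeq2 and limma called 0. MICB had a log2 fold change of 0.25 (SE 0.18), ULBP2 0.13 (SE 0.09) and MICA 0.06 (SE 0.10). Within A-C 0 were called, beside 1.11% of all genes, and 0 had an unadjusted p of at most 0.05. Within D-F 0 were called, beside 3.37%, and 2 had such an unadjusted p, where 15.2% of all genes did. These were MICB at 0.58 (SE 0.26, adjusted p = 0.329 by edgeR) and ULBP1 at -0.88 (SE 0.38, adjusted p = 0.302 by edgeR). ULBP1 had 1.49 and 2.45 TPM in D, 1.02 and 1.17 in E, and 2.00 and 1.72 in F, so the low values at 20 ng/ml were not seen at 200 ng/ml. Between 200 and 20 ng/ml 0 of 7 differed, beside 0.135% of all genes, 0 had an unadjusted p of at most 0.05 in edgeR, and DESeq2 and limma called 0. The comparisons with control share the control samples, so their values are not independent of each other.

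MICB and MICA can also be set against each other within a sample, which needs no scaling between libraries. In estimated counts MICB stood at 1.10 to 1.28 times MICA in A, 0.828 to 1.37 in B and 1.07 to 1.56 in C. It stood at 1.40 to 1.69 in D, 2.11 to 2.19 in E and 2.59 to 2.61 in F. The treated D-F samples were thus above every other sample, and F above E. On TPM the same samples were apart, at 1.49 to 2.11 in E and F against 0.487 to 1.01 elsewhere, but F no longer stood wholly above E. The ratio was chosen after the values were seen and is a description with no test. It is free of library scaling, but any division of reads among MICA, HCP5 and MICB would enter it.

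**Figure D3:**
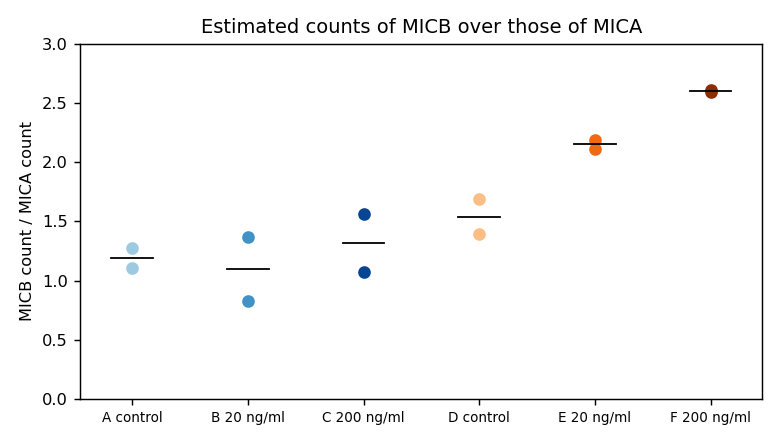
Estimated count of MICB divided by that of MICA (y axis, from 0) in each sample, by letter, with a bar at the mean of the 2 replicates. E lies between 2.11 and 2.19 and F between 2.59 and 2.61, above all samples of A, B, C and D, whose highest value is 1.69.

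The second comparison set the untreated line sets side by side. Of the 7 ligands 3 were lower in D than in A (MICA, ULBP2 and ULBP3) and 0 were higher. Of all genes, 46.4% differed, 22.4% lower and 24.1% higher in D, so 3 of 7 is near the background. MICA was at 34.6 and 40.9 CPM in A and 27.96 and 24.9 in D, a log2 difference of -0.52 (D minus A, SE 0.14, adjusted p = 0.0115 by edgeR). Its A and D samples did not overlap on CPM, as was so for 74.3% of all genes, but they overlapped on TPM. ULBP2 was at 30.8 and 29.7 CPM in A and 25.4 and 21.5 in D, a difference of -0.36 (SE 0.12, adjusted p = 0.0374 by edgeR). ULBP3 was at 11.3 and 12.4 CPM in A and 6.36 and 7.63 in D, a difference of -0.76 (SE 0.22, adjusted p = 0.0199 by edgeR). None of these was as large as 2-fold.

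The remaining ligands were not called between the line sets. MICB was at 44.2 and 45.1 CPM in A and 39.0 and 42.0 in D (log2 difference -0.14, interval -0.72 to 0.44). ULBP1 had a difference of 0.49, RAET1L of -0.83 and RAET1G of -0.08, with intervals that reached beyond 1 in at least 1 direction. Without the second A replicate 0 ligands were called, and without the second D replicate 1 was (ULBP3). Over the alternatives run MICA and ULBP3 were each called in 16 of 19 and ULBP2 in 6 of 18. On TPM with limma 0 were called. That scale moved the median of all genes by 0.13 between D and A, where the count scale moved it by 0.01, and gave MICA -0.17, ULBP2 -0.24 and ULBP3 -0.59. The direction held for these 3 ligands. KRT14 and CDH5 also separated the line sets, as given above, and their part in these differences was not tested.

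The transcript estimates within a gene varied more than the genes did. ULBP1 and ULBP2 had 1 transcript each. MICA-209, which has the longest coding sequence of the 3 MICA transcripts listed, carried a median of 94.2% of MICA TPM and as little as 35.0%, with the longer MICA-210 at 0 in 6 samples and at up to 65.0% in the others. In A the replicates gave MICA-210 16.1 and 0 TPM. MICB was divided chiefly between MICB-204 (median 55.7%, range 21.8% to 84.1%) and MICB-201 (median 33.7%, range 3.61% to 73.3%). In F the replicates gave MICB-204 46.0 and 12.6 TPM while MICB as a gene was at 56.7 and 54.0. Of the 16 ligand transcripts 13 were among the 75876 tested, and the 3 of RAET1G were not. None of the 13 was called at 200 ng/ml by edgeR, beside 0.597% of all transcripts, 0 had an unadjusted p of at most 0.05, and with swings this wide between replicates no change of isoform can be read from the values.

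The neighbours of the ligand genes were read next. Of the 7 neighbours tested at the MIC and ULBP loci, HLA-B rose at 200 ng/ml (log2 1.48, SE 0.07, adjusted p = 5.19e-07 by edgeR) and DDX39B, an RNA helicase gene beyond MICB, fell (-0.24, SE 0.06, adjusted p = 0.0289 by edgeR). Of all genes 4.57% fell at that dose. DDX39B had -0.435 in A-C (adjusted p = 0.0140 by edgeR) and -0.04 in D-F, a difference that was not called (adjusted p = 0.111 by edgeR). Its mean TPM did not fall, at 154.2 in A and 158.8 in C, and 140.0 in D and 160.5 in F. HLA-B was at 346.0 and 385.1 TPM in A, 546.9 and 388.5 in C, 354.4 and 332.4 in D, and 1782 and 1871 in F. Its response differed between the line sets by 1.75 (SE 0.13, adjusted p = 0.00111 by edgeR), larger in D-F.

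Ligands that restrain NK cells or phagocytes were among the genes called. Of the 4 inhibitory ligands tested 3 rose at 200 ng/ml and the same 3 at 20 ng/ml, and 0 fell. Of all genes 4.98% rose at 200 ng/ml and 2.33% at 20 ng/ml. LGALS9, which encodes galectin-9, a ligand of TIM-3 that the study had set out to follow, was at 5.18 and 7.02 TPM in A, 72.9 and 86.3 in C, 4.21 and 2.35 in D, and 122.6 and 89.8 in F (log2 4.14, SE 0.17). HLA-E, the ligand of the inhibitory receptor NKG2A, was at 81.4 and 85.8 TPM in A and 141.3 and 125.4 in C, and at 70.5 and 68.7 in D and 202.7 and 195.7 in F (log2 1.06, SE 0.07, adjusted p = 1.54e-05 by edgeR). CD47, which signals to SIRPα on phagocytes, was up by 0.39 on the log2 scale (SE 0.06, adjusted p = 0.00420 by edgeR). CD47 was at 153.6 and 130.9 TPM in A and 140.7 and 126.0 in C, against 28.6 and 42.5 in D and 83.9 and 86.4 in F, and its response differed between the line sets (0.96, adjusted p = 0.00837 by edgeR). CLEC2D, which encodes the ligand of CD161, had -0.12 (SE 0.17).

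Activating ligands outside the NKG2D family had a share of calls near that of all genes (9.55%). Of the 7 tested 0 rose and 1 fell at 200 ng/ml, BAG6, a ligand of NKp30 (log2 -0.33, SE 0.08, adjusted p = 0.0312 by edgeR). CD58, which binds CD2, had 0.63 (SE 0.18, adjusted p = 0.0571 by edgeR) and CLEC2B, the NKp80 ligand AICL, 0.63 (SE 0.19, adjusted p = 0.0682 by edgeR). ICAM1, the adhesion ligand of LFA-1, had opposite changes in the 2 line sets, -0.55 in A-C (adjusted p = 0.0324) and 0.83 in D-F (adjusted p = 0.00470), and this difference passed its own test in edgeR (1.38, SE 0.18, adjusted p = 0.00867). The medians of the lists were 0.08 for the NKG2D ligands, 0.20 for the other activating ligands and 0.73 for the inhibitory ones, beside -0.01 for all genes, and the lists were not tested against each other.

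**Figure D4:**
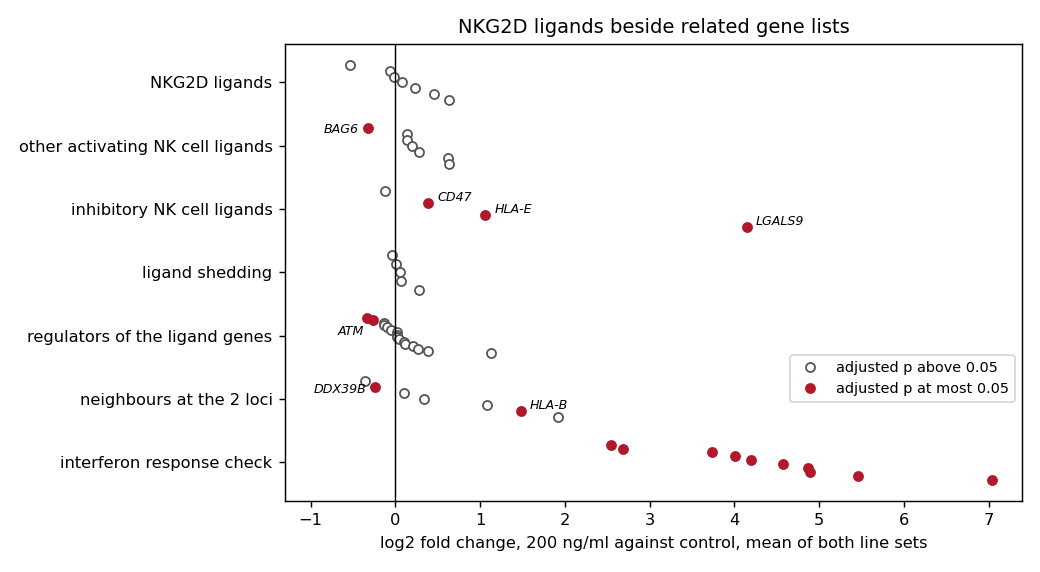
Log2 fold change at 200 ng/ml IFNα over both line sets (x axis) of every tested gene of each list, filled where the adjusted p was at most 0.05, with the names of called genes that the text describes outside the interferon check. The NKG2D ligands are all open and lie between -0.54 and 0.63, while LGALS9 and HLA-E lie at 4.14 and 1.06 and all 10 interferon check genes are filled and lie to the right of 0.

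Genes that act on the ligands were read against the same 9.55% of all genes called. Of the 5 shedding genes tested (ADAM9, ADAM10, ADAM17, MMP14 and the disulfide isomerase PDIA6) 0 were called at either dose by edgeR, with log2 fold changes from -0.04 to 0.28 at 200 ng/ml. Of the regulators of the ligand genes 0 rose at 200 ng/ml, and the DNA damage kinase ATM was among those that fell (-0.26, SE 0.07, adjusted p = 0.0439 by edgeR). HSF1, the factor of the heat shock element, had -0.13 (SE 0.13). RAET1E, a further ligand gene of the locus, and the pseudogene RAET1K were both tested and neither was called (0.69, SE 0.52, and -0.05, SE 0.23).

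The same lists were compared between the untreated line sets, where 46.4% of all genes differed, and the lists were not tested against the ligands. RAET1E was lower in D than in A (log2 -2.82, SE 0.70, adjusted p = 0.00801 by edgeR). Of the 7 other activating ligands tested 1 was higher in D, NCR3LG1, which encodes the NKp30 ligand B7-H6 (2.89, SE 0.20), and 4 were lower, most of all ICAM1 (-2.53, SE 0.13) and CLEC2B (-1.94, SE 0.27). Among the 4 inhibitory ligands tested CLEC2D was higher (1.68, SE 0.24) and 3 were lower, with CD47 at -1.75 (SE 0.09) and LGALS9 at -0.79 (SE 0.24). Of the regulators ATM was among those higher in D (0.87, SE 0.10), and 6 of 16 were lower, RBM4 most (-0.83, SE 0.16), then SP3 (-0.58, SE 0.09). Of the 5 shedding genes ADAM9 was higher (0.39, SE 0.07) and PDIA6 lower (-0.67, SE 0.18). Of the 7 neighbours tested PPP1R14C (1.62, SE 0.23) and LRP11 (0.87, SE 0.26) were higher and DDX39B (-0.66, SE 0.08) was lower. All 10 interferon check genes were lower in D than in A before treatment, among them IFI44L at -2.84 and MX1 at -1.43.

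Each abundant ligand was last compared in pattern with the 13033 genes that had a mean of at least 50 counts, after the mean of each line set was taken out of log2 CPM. Over the 12 samples, which share library depth and the 2 line sets, MICB was most like ABHD3 (Pearson r = 0.948), NECTIN4 (0.928) and OAF (0.925). MICA was most like EPOP (0.938), OSBPL5 (0.889) and AAR2 (0.886), and ULBP3 most like TMEM201 (0.959), PHC2 (0.927) and PTPN23 (0.921). ULBP2 was most like AC083837.1 (0.945), AL627309.5 (0.943) and C10orf10 (0.919). Among the 4 ligands themselves r ran from 0.083 (ULBP2 with ULBP3) to 0.633 (MICB with ULBP2), below each of these. The highest of 13033 values is high by selection alone, so these are descriptions of the samples.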

How the data were processed

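Total RNA of 12 samples was depleted of ribosomal RNA and made into strand-specific libraries, sequenced on the HiseqXTen platform. Per the submitters' processing notes the tools were Trimmomatic 0.36, HISAT2 2.1.0 and StringTie 1.3.3b on GRCh38.p10. Their settings, the annotation release and the strand setting of the counting are not given in the sources used here. Estimated counts per gene and per transcript, as deposited by the authors, are whole numbers without scaling for depth. TPM and FPKM values, deposited beside it, had been scaled by the authors for length and depth, and FPKM was not used.

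The 7 ligands, the related gene lists and the tests were chosen with earlier results of these data known. Samples were grouped by line set and dose from the sample titles and the design text. Levels are deposited TPM with the SD of 2 replicates, or CPM scaled by the TMM factor. Changes were fitted to these counts in R 4.3.3 by edgeR 4.0.16 (TMM, filterByExpr, quasi-likelihood test, Benjamini-Hochberg adjustment) in a single fit of the 6 letters, and a change over both line sets is the mean of the 2 within-set changes. The standard error is the log2 fold change over the square root of F, and the 95% interval uses 9.49 degrees of freedom. DESeq2 1.42.0 and limma 3.58.1 on log2(TPM + 0.1) were alternatives, as were RLE size factors, no filter on low counts, a replicate block, only the letters compared, the paper's threshold, summed paralogs and leaving out each sample. In counts simulated for 200 ng/ml against control over 19944 genes, edgeR recovered 13 of 67 genes changed 1.5-fold, 41 of 67 changed 2-fold and 54 of 66 changed 4-fold, and 9 of 117 calls were false. Far fewer genes were changed in the simulation than the 1905 called in the data, so its cut-off was stricter. Intervals and the limit of 3 counts cover counting and sample spread as stated and not the division of shared reads. All ligands are named. Of each related list, up to 3 genes per direction at 200 ng/ml and up to 2 per direction between untreated line sets were named by size among those called, and further names, such as HCP5, CD58, CLEC2B, CLEC2D, ICAM1 and HSF1, were chosen after their values were seen. Coding sequences came from GENCODE v29 and promoters from RefSeq (GRCh38.p14). HCG26 and MICB-DT, listed as neighbours, were not analysed here. Python 3.11.15, pandas 2.3.3, numpy 2.4.6, scipy 1.17.1 and matplotlib 3.10.9 were used for tables and figures. Certain genes of the lists are not reported here.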

Additional observations from a re-analysis of the deposited data

Results flagged for a closer look

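Of the 21 groups of 4 samples (7 ligands at 3 doses, both line sets together), 1 held a sample that stood apart, where chance alone gives about 1 in 20, or 1.05. It was ULBP1 at 20 ng/ml, where the first B replicate had 2.05 TPM and the other samples 1.02 to 1.17. The gap was 0.857 of the range of the group, and the sample was the highest of 4 in a gene with 21 to 70 counts per sample.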

How the results depend on the processing

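At 200 ng/ml 0 of 7 ligands were called, and leaving out each sample in turn gave 0 to 1, the 1 being MICB without the second C replicate (0.63, adjusted p = 0.0351 by edgeR). The adjusted p of MICB ranged from 0.0351 to 0.434 over 19 alternatives, all with the same direction. Between untreated line sets 3 ligands were called, and leaving out each sample gave 0 to 3, with 0 without the second A replicate and 1 without the second D replicate. For these 3 ligands limma on log2(TPM + 0.1) called 0, and a fold of at least 2 with an unadjusted p of at most 0.05 called 0. DESeq2, no filter on low counts and a fit of only the letters compared each called 2 (MICA and ULBP3), with the ULBP2 adjusted p at 0.0590, 0.103 and 0.0920. The cause was not tested, except that the threshold of 2-fold is above all 3 differences. At 20 ng/ml, between 200 and 20 ng/ml and for the difference between line sets at 200 ng/ml, 0 were called in every alternative run. The replicate block called 0 at 200 ng/ml and 3 between untreated line sets, as did the fit without it, and it changed no other call. No shared effect of the replicate number was seen. Correlations between same-numbered samples, in their deviations from the letter mean, ran from -0.051 to 0.058. This does not show whether same-numbered samples were handled together. Depth limits RAET1G, RAET1L and ULBP1 most. In the simulation, over genes of many depths, most 1.5-fold changes were missed (13 of 67 recovered). The intervals of MICA, ULBP2 and ULBP3 at 200 ng/ml over both line sets lay inside a 1.5-fold change in either direction.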
